A study of Mus musculus with 8 samples.

Results

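The clustered histone genes are the genes of the mouse histone clusters that code for the linker histone H1 and the core histones H2A, H2B, H3 and H4. They were chosen here by name, as the protein-coding genes whose GRCm38 symbols begin with Hist1h, Hist2h, Hist3h or Hist4h. Of 67 such genes in the annotation, 65 had a row among the 51826 genes of the deposited count table, and the other 2, Hist1h2bm and Hist1h2bh, were not analysed here. The 65 genes comprised 6 of class H1, 18 of H2a, 16 of H2b, 12 of H3 and 13 of H4. They lie in 4 places of the genome (GRCm38), with 52 Hist1 genes over 2220 kb of chromosome 13, 10 Hist2 genes over 50.3 kb of chromosome 3, 2 Hist3 genes on chromosome 11 and 1 Hist4 gene on chromosome 6.

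The libraries were made from heart cardiomyocytes of C57BL/6 mice that were wild type (WT) or LncSync-/- (KO, lacking the long noncoding RNA LncSync), at the embryonic stage e13.5 and in adults. Each of the 4 groups held 2 libraries, made by Smart-seq2 amplification of 200 ng of total RNA. The labels give no adult age and do not tell whether the 2 libraries within each group are from different animals, so the p-values measure only the spread between these libraries. No gene of the annotation used here is named LncSync, so the deleted gene itself was not analysed here.

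A dividing cell makes new histones as it copies its DNA, and most clustered histone genes are transcribed in S phase for that purpose. Their mRNA usually has no poly(A) tail and ends instead in a short stem-loop, which is bound by the stem-loop binding protein SLBP and is needed for processing, translation and decay of the mRNA. Some clustered genes also give polyadenylated mRNA in cells that have stopped dividing, and separate replication-independent histone genes elsewhere in the genome supply variant histones throughout the cell's life. Smart-seq2 starts its reverse transcription from an oligo-dT primer, so the values below count histone RNA that such a primer could start from. In bulk samples, a smaller share of dividing cells and less histone RNA per dividing cell cannot be told apart.

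The stem-loop was searched on the transcript strand in the annotated 3′ untranslated region, as a 16-base hairpin GGNNNNTTTNNNNNCC with all 6 bases of each arm paired. It was found in 42 of the 65 genes and in 19 of 20805 other protein-coding genes (0.0913%). Of the 23 genes without a match, 15 had fewer than 16 annotated bases after the stop codon. The loop began 21 to 58 bases after the stop codon, with a median of 31.5. The windows of 6 genes whose levels are described below show the 16 bases of stem and loop in capitals.
Hist1h2ap: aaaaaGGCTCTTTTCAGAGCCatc
Hist1h2ab: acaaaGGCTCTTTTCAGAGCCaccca
Hist1h3c: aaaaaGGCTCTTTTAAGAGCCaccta
Hist1h1c: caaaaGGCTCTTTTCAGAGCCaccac
Hist2h2aa2: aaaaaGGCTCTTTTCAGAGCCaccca
Hist1h4h: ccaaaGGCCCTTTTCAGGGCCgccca
The first 3 genes were nearly absent from adult libraries and the last 3 were among the highest there, yet each window holds a complete stem-loop. The form in Hist1h2ap was the most common, in 24 genes, and the form in Hist1h4h was found in 7 genes, each of class H4. The annotated length beyond the loop was 3 bases in Hist1h2ap, 11 in Hist1h2ab and 74 in Hist1h3c. It was 840 in Hist1h1c, 35 in Hist2h2aa2 and 46 in Hist1h4h, so lengths overlapped between the first 3 and the last 3 genes.

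RefSeq promoter sequences (250 bases before and 50 after the start, GRCm38.p6) were given for 60 of the 65 genes. Bases upstream of the start are printed for 4 genes with motif matches in capitals, and each motif was searched on both strands. Where GENCODE places the start further upstream, as in Hist1h2ap, the printed run stops before it.
Hist1h2ap, 118 bases, chr13:21833508-21833625, minus strand: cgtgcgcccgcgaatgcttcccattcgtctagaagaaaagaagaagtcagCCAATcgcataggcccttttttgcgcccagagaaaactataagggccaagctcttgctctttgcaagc
Hist1h2ab, 150 bases, chr13:23750938-23751087, plus strand: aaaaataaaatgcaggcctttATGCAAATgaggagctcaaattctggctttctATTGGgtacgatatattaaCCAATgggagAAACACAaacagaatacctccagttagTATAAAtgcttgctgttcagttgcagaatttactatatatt
Hist1h1c, 150 bases, chr13:23738657-23738806, plus strand: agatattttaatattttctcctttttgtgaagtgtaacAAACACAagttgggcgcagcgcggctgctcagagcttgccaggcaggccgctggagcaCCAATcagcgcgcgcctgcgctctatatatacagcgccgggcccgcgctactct
Hist1h4d, 150 bases, chr13:23581418-23581567, plus strand: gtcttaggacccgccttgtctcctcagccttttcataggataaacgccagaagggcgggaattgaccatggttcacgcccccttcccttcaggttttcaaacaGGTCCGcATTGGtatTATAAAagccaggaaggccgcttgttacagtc
The classes carried different letters. The H1 box AAACACA was in 5 of 6 H1 promoters and in 7.17% of the 32790 RefSeq promoters of other genes. The H4 motif GGTCCG was in 11 of 12 H4 promoters, against 8.23% of the others, and CCAAT was in each of the H1, H2a, H2b and H3 promoters but in 3 of 12 of class H4, against 37.3%. The octamer ATTTGCAT was in 7 of 18 H2a and 5 of 14 H2b promoters, against 1.7% of the others, and TATAAA was in 40% to 66.7% of each class's promoters, against 4438 of the 32790 others. These matches describe the sequences and do not show that a factor binds there.

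The libraries held between 16495084 and 20395600 estimated counts, so 3 counts corresponded to 0.103 to 0.207 CPM (the usual count unit scaled to library size, here with TMM-scaled library sizes). Mitochondrial genes took 3.21% to 4.36% of e13.5 counts and 22.6% to 28.8% of adult counts. Summed markers of cardiomyocytes stood at 14670 to 37780 CPM at e13.5 and at 83590 to 107900 CPM in adults. Erythroid markers summed to 42180 and 19540 CPM in the WT and 154100 and 22210 CPM in the KO libraries at e13.5, and to 17.8 to 181 CPM in adults, with no listed erythroid gene at 0 in every library. Fibroblast markers were at 896 and 3713 CPM in WT and 421 and 3665 CPM in e13.5 KO, so replicate 1 stood apart from replicate 2 in both genotypes at that age. The part of these differences in the results below was not tested.

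Summed histone levels in CPM were lower in adult than in e13.5 hearts, and most of the difference lay in class H2a. The 65 genes together stood at 1126 and 508.5 CPM in the WT e13.5 libraries and at 250.5 and 249 CPM in the WT adult libraries. In KO they stood at 968.8 and 751.2 CPM at e13.5 and at 247.9 and 185.7 CPM in adults. Each e13.5 library was above each adult library, and the e13.5 mean was 3.27-fold the adult mean in WT and 3.97-fold in KO. Without the single gene Hist1h2ap, the log2 ratio of adult to e13.5 moved from -1.71 to -0.34 in WT and from -1.99 to -0.38 in KO. No p-value is given for sums over the members.

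**Figure D1:**
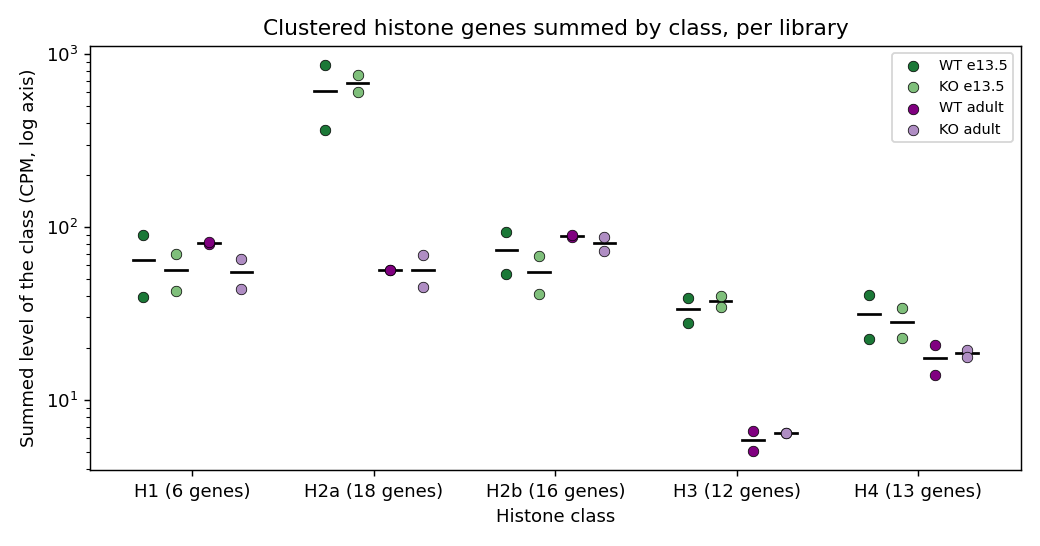
Summed level of each histone class in CPM (log axis) in each of the 8 libraries, where points are libraries and black lines are group means of 2 libraries. The H2a, H3 and H4 sums are lower in every adult library than in every e13.5 library, while H1 and H2b sums overlap between the ages.

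The classes gave different pictures. H2a stood at 863 and 365 CPM in WT e13.5 libraries against 56.6 and 56.7 CPM in adults, and at 762 and 605 against 68.8 and 44.7 CPM in KO. H3 stood at 39.1 and 27.9 against 5.07 and 6.61 CPM in WT, and at 34.5 and 39.7 against 6.46 and 6.43 CPM in KO. For both classes no adult library reached an e13.5 library. H1 did not separate the ages, with 89.6 and 39.2 CPM at e13.5 and 80.1 and 81.4 CPM in adults in WT, and 70.1 and 42.6 against 65.3 and 44.1 CPM in KO. H2b overlapped in WT, at 94.1 and 53.8 CPM at e13.5 and 87.8 and 90.4 CPM in adults, and was higher in both adult libraries of KO, at 68.4 and 41.1 against 87.9 and 72.8 CPM. H4 was at 22.6 to 40.5 CPM at e13.5 and at 13.9 to 20.9 CPM in adults, without overlap.

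In each class, 1 gene made up most of the adult sum. Hist1h1c held 98.3% of the H1 sum in WT adults and 98.2% in KO adults, Hist2h2aa2 59.7% and 77.5% of H2a, Hist1h2bc 84.0% and 77.2% of H2b, Hist2h3c2 50.9% and 56.9% of H3, and Hist1h4h 67.7% and 68.0% of H4. Without Hist1h1c the H1 sum was 30.0, 13.2, 20.8 and 16.3 CPM in the e13.5 libraries and 0.795 to 1.40 CPM in adults, a difference of 16-fold in WT and 18.7-fold in KO. Without Hist1h2bc the H2b sum was 2.45-fold lower in WT adults and 1.44-fold lower in KO adults, a direction opposite to that of the whole class in both genotypes (log2 0.27 and 0.55). Without Hist1h4h the H4 sum was 5.28-fold and 4.33-fold lower in adults. The whole H2a sum was 10.8-fold lower in WT adults and 12-fold lower in KO adults. With Hist1h2ap, its highest gene at e13.5, left out, the H2a sum was 2.01-fold and 1.87-fold lower.

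**Figure D2:**
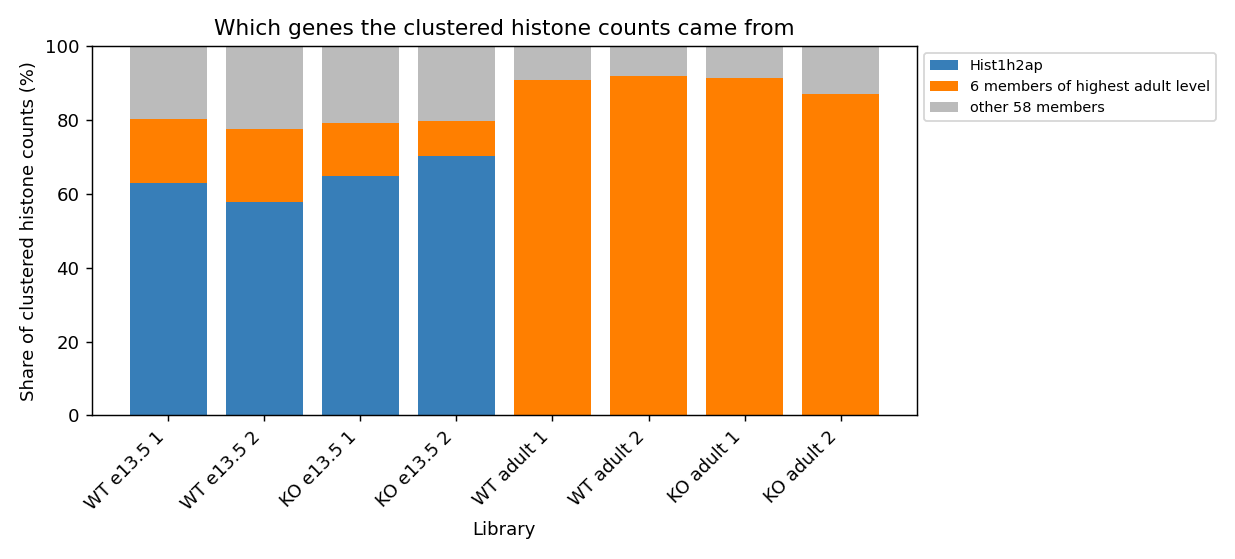
Share of all clustered histone counts in each library (%) taken by Hist1h2ap, by the 6 genes of highest adult level (Hist1h2bc, Hist1h1c, Hist2h2aa2, Hist3h2a, Hist1h4h and Hist2h2be) and by the other 58. Hist1h2ap takes 57.7% to 70.2% at e13.5 and at most 0.133% in adults, where the 6 genes take 86.9% to 91.8%.

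The make-up of the histone RNA also differed between the ages. Hist1h2ap, an H2A gene of the chromosome 13 cluster, held 57.7% to 70.2% of all clustered histone counts in the e13.5 libraries. In adults Hist1h2bc (an H2B gene), Hist1h1c (which codes for linker histone H1.2), Hist2h2aa2, Hist3h2a, Hist1h4h and Hist2h2be held 86.9% to 91.8%, and 9.54% to 19.7% at e13.5. These 6 were chosen as the highest adult genes after their values were seen, so their large adult share is a description.

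Gene by gene, the comparison of adult with e13.5 hearts asked how the histone genes changed as the heart matured. In WT, 33 of the 56 genes that passed the filter on low counts differed by edgeR's quasi-likelihood test at an adjusted p below 0.05, with 2 higher and 31 lower in adults. Of these, 4 of class H1, 10 of H2a, 7 of H2b, 6 of H3 and 4 of H4 were lower. Over all 16623 genes tested, 38.9% were called in WT (17.8% higher and 21.1% lower). In KO, 3 were higher and 35 lower (3, 12, 6, 8 and 6 by class), against 41.4% of all genes called (20.5% higher and 20.9% lower). The median log2 change of the tested members was -3.38 in WT and -4.30 in KO, or -2.66 and -3.30 when a gene with 0 counts in a group took the bound that 3 counts allow, against -0.26 and -0.15 over all genes tested. Of the 56, 44 passed the filter through the e13.5 libraries alone, 1 through the adult libraries alone and 11 at both ages. Passing only through e13.5 favours genes that are higher there, though some, such as Hist1h3i in WT (1.48-fold), were higher in adults. These counts and medians therefore describe the genes and support no more than that. The 26 genes called lower in both genotypes were 83.9% of the WT and 74.3% of the KO calls. Both comparisons came from the same fit, and the matching overlap over all genes tested was not counted. Leaving out 1 library lowered the counts of 33 in WT and 38 in KO, most without an adult library of that genotype. The share of all genes tested that was called fell as well without such an adult library. Genes called in every setting in which they were tested numbered 12 in WT and 19 in KO, with Hist1h2ap, Hist1h2ab, Hist1h2ae, Hist1h2ag, Hist1h2ai, Hist2h2ac, Hist1h1b, Hist3h2ba, Hist2h3b, Hist1h3c and Hist1h4d among both. The share of all genes called in every setting was not counted.

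**Figure D3:**
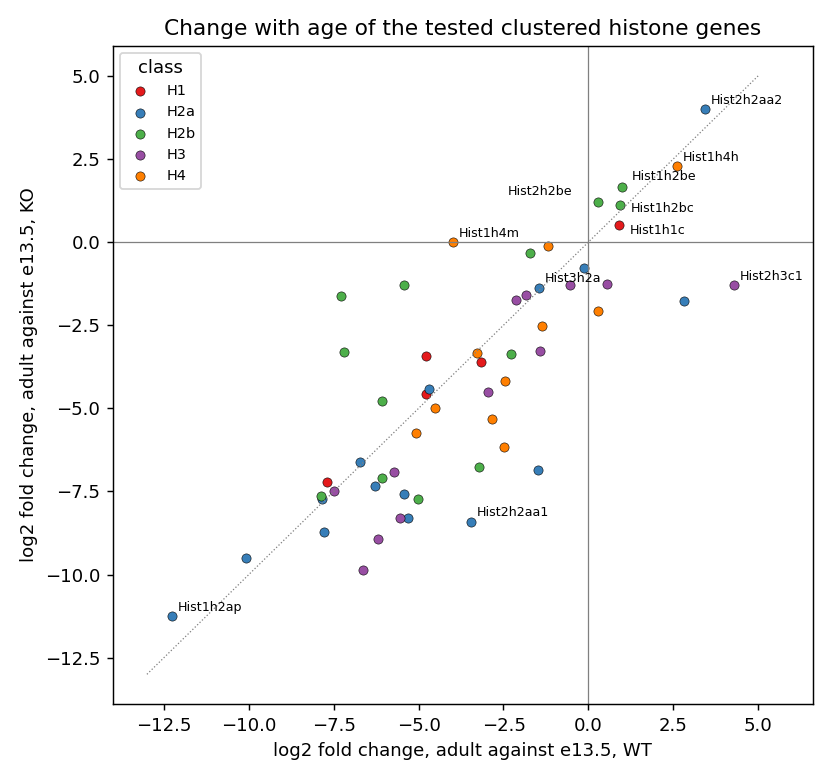
Log2 fold change from e13.5 to adult in WT (x axis) and KO (y axis) for the 56 tested genes, coloured by class, with the dotted line marking equal changes. Most points lie at the lower left, Hist2h2aa2 and Hist1h4h at the upper right, and fitted values of genes at 0 in a group depend on the prior count of the fit.

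Hist1h2ap (ENSMUSG00000094777, chr13:21833026-21833507, minus strand, GRCm38) showed the largest fall. Its estimated counts were 15350 and 8527 in the WT and 10039 and 13330 in the e13.5 KO libraries, and 0, 3, 5 and 2 in the WT and KO adult libraries. On totals over the 2 libraries of a group this is a 4970-fold lower level in WT adults (95% counting interval 1700 to 24100) and a 2450-fold lower level in KO adults (1190 to 6090), where intervals cover counting error only. The fitted log2 change was -12.25 ± 1.08 (SE) in WT and -11.25 ± 1.01 in KO (edgeR adjusted p = 0.000214 and 0.000173). Per length, Hist1h2ap stood at 1038 CPM per kb in WT and 1198 CPM per kb in e13.5 KO, where the next highest gene was Hist1h2bc in WT (33.8 CPM per kb) and Hist2h2aa1 in KO (42.0 CPM per kb). A coding sequence identical to that of Hist1h2ap is found in Hist1h2ao, and 93.4% of the 31-base words of Hist1h2ap are also in Hist1h2ao, so reads could be shared between them. Hist1h2ao received 4 and 0 counts in WT and 0 and 9 in e13.5 KO, and none in adults, so the sum of both genes fell as Hist1h2ap did (log2 -12.24 in WT and -11.29 in KO).

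Among the other H2A genes, Hist1h2ae fell from 36.0, 11.5, 27.3 and 18.8 CPM in the WT and KO e13.5 libraries to at most 0.329 CPM in adults (log2 -6.72 ± 0.84 in WT and -6.60 ± 0.83 in KO, edgeR adjusted p = 0.000494 and 0.000474). Hist1h2ab had 87 to 210 counts in each e13.5 library and 0 in each adult library, and was at least 69.6-fold lower in WT and 45.7-fold lower in KO adults. Hist1h2ai and Hist2h2ac likewise had 25 to 77 counts at e13.5 and 0 in adults, at least 14.4-fold and 15.2-fold lower in WT and at least 28.1-fold and 13-fold lower in KO. Hist3h2a, of the small chromosome 11 cluster, fell less, from 69.5, 36.7, 36.5 and 21.8 CPM to 18.6, 20.3, 13.8 and 8.82 CPM (log2 -1.45 ± 0.49 and -1.37 ± 0.50, edgeR adjusted p = 0.0423 and 0.0497). Every adult value of Hist3h2a was below every e13.5 value. The annotation also places 708 bases of Trim17 on the same strand as Hist3h2a.

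Hist2h2aa2 (chr3:96239749-96240276, minus strand) rose. It had 5.12 and 1.17 CPM (WT) and 5.0 and 0.633 CPM (KO) in e13.5 libraries, and 36.0, 31.6, 53.6 and 34.4 CPM in adults, so all adult libraries were above all e13.5 libraries. The log2 change was 3.43 ± 0.94 in WT and 3.99 ± 0.97 in KO (edgeR adjusted p = 0.018 and 0.00998). Its twin Hist2h2aa1, with an identical coding sequence, stood at 16.6, 9.64, 35.4 and 13.9 CPM at e13.5 and at 0, 2.41, 0 and 0.133 CPM in adults (log2 -3.46, edgeR adjusted p = 0.0523 in WT, and -8.41, adjusted p = 0.00469 in KO). All 31-base words of Hist2h2aa2 also occur in the transcript Gm20634. Summed, the pair was at 21.71, 10.81, 40.38 and 14.52 CPM at e13.5 and 36.03, 34.02, 53.63 and 34.53 CPM in adults, a log2 ratio of 1.11 in WT and 0.68 in KO. The sum did not separate the ages in KO, where 1 e13.5 library was above 1 adult library. The opposite signs of the 2 genes were thus not those of their sum, and how the counting split reads between copies was not tested.

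**Figure D4:**
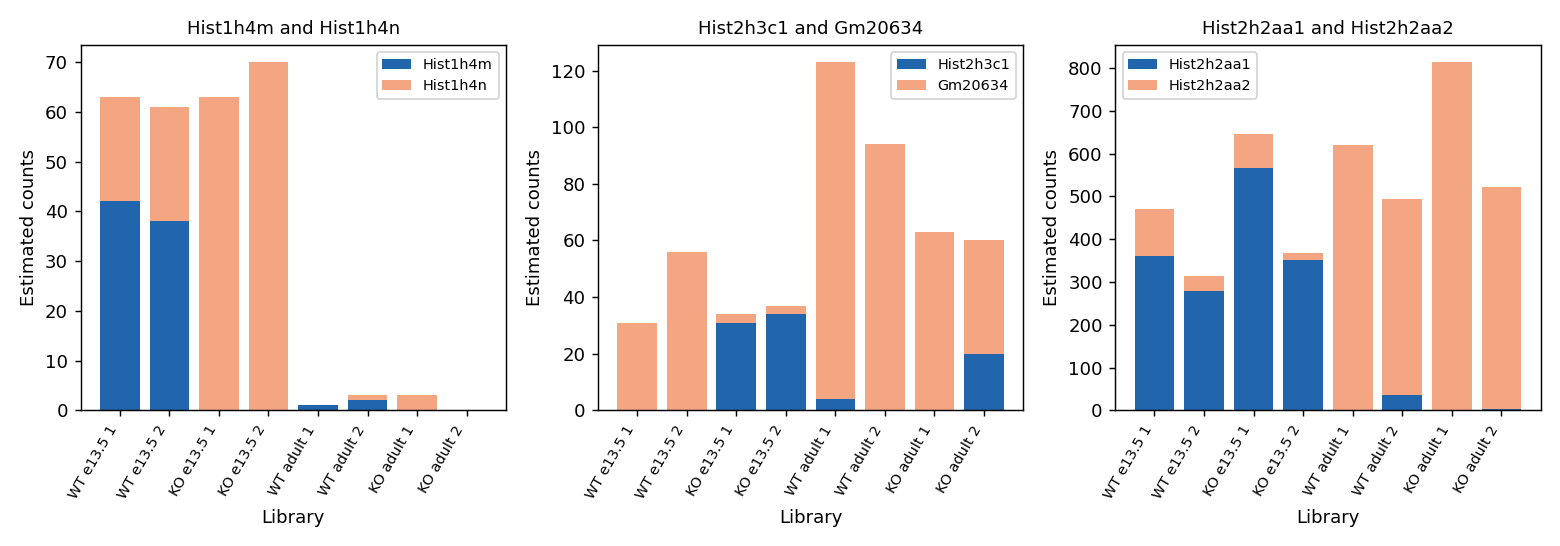
Estimated counts in each library for 3 pairs of genes that share sequence, stacked so that the bar height is the sum of the pair. The pair sums Hist1h4m with Hist1h4n and Hist2h3c1 with Gm20634 are of like size in WT and KO at e13.5, although the split within each pair differs.

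In class H1, Hist1h1c stood at 59.6 and 25.9 CPM in WT and 49.4 and 26.3 CPM in e13.5 KO, and at 78.7, 80.1, 64.1 and 43.3 CPM in adults. The KO groups overlapped, and neither age difference passed the test (log2 0.89, edgeR adjusted p = 0.195 in WT and 0.51, adjusted p = 0.445 in KO). Hist1h1e, which codes for H1.4, fell from 5.30 to 16.1 CPM at e13.5 to 0.597 to 1.22 CPM in adults (log2 -3.15 ± 0.66 and -3.61 ± 0.68, edgeR adjusted p = 0.00548 and 0.00311). Hist1h1b, which codes for H1.5, had 228, 152, 133 and 87 counts at e13.5 and 1, 0, 1 and 0 in adults (log2 -7.70 and -7.21, edgeR adjusted p = 0.00102 and 0.00127). Hist1h1d fell in both genotypes (log2 -4.77 and -4.58), and Hist1h1a fell in WT (log2 -4.79, edgeR adjusted p = 0.0264) and was at log2 -3.44 in KO (adjusted p = 0.0521).

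In class H2b, Hist1h2bc held 50.1 and 28.2 CPM in WT and 39.6 and 17.1 CPM in e13.5 KO, and 74.9, 74.9, 72.5 and 51.6 CPM in adults. All adult values lay above all e13.5 values, though the test was not passed (log2 0.94, edgeR adjusted p = 0.168 in WT and 1.13, adjusted p = 0.10 in KO). Hist2h2be was at 4.16 to 7.74 CPM at e13.5 and at 6.81 to 11.7 CPM in adults, with no call (log2 0.27 and 1.20, edgeR adjusted p = 0.673 and 0.0681). Hist1h2be rose in KO, from 1.5 and 1.74 CPM to 4.55 and 5.77 CPM (log2 1.66 ± 0.53, edgeR adjusted p = 0.032), and in WT stood at 2.07 and 2.48 against 5.01 and 4.13 CPM (log2 1.0, adjusted p = 0.151). The annotated exons of Hist1h2be overlap those of Hist1h1e on the same strand over 496 bases. Hist3h2ba fell from 24.7, 7.61, 7.63 and 8.15 CPM to at most 0.116 CPM (log2 -7.88 ± 1.09 and -7.64 ± 1.16, edgeR adjusted p = 0.000744 and 0.00109). Hist1h2br, whose coding sequence equals that of Hist1h2bq, was at 0.922 to 2.69 CPM at e13.5 and 0.207 to 2.85 CPM in adults, with no call.

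In class H3, Hist2h3c2 had the highest CPM at both ages. Per length it was the highest in adults, while at e13.5 Hist2h3b stood at 13.99 CPM per kb in WT and 12.43 in KO against 12.66 and 11.94 CPM per kb for Hist2h3c2. Hist2h3c2 was at 16.2, 9.64, 10.6 and 13.7 CPM at e13.5 and at 2.50, 3.44, 4.28 and 3.05 CPM in adults (log2 -2.12 ± 0.52 and -1.73 ± 0.51, edgeR adjusted p = 0.011 and 0.0228), with no overlap between the ages. Hist2h3b fell from 77 to 185 counts per library at e13.5 to 2 counts in 1 WT adult library and 0 in the other 3 adult libraries (edgeR adjusted p = 0.00144 in WT and 0.000929 in KO). The coding sequences of Hist2h3b and Hist2h3c2 differ at 1 of 411 bases. Of their 31-base words, 80.6% for Hist2h3b and 64.2% for Hist2h3c2 also occur in Gm20634. Reads could thus be shared, and how the counting split them was not tested. Hist1h3c had 38 to 99 counts at e13.5 and a single count in the 4 adult libraries together, so it was at least 33.5-fold lower in KO adults. Hist1h3e fell in both genotypes (log2 -2.97 and -4.52, edgeR adjusted p = 0.0125 and 0.00304). Hist1h3f remained measurable in adults, at 0.344 to 1.38 CPM against 1.48 to 3.56 CPM at e13.5, and passed the test in neither genotype (adjusted p = 0.0762 and 0.101).

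In class H4, Hist1h4h (chr13:23531050-23531519, plus strand) rose from 2.63 and 1.24 CPM (WT) and 3.44 and 1.74 CPM (KO) in e13.5 libraries to 12.6, 11.0, 13.6 and 11.6 CPM in adults. Every adult library was above every e13.5 library, and the log2 change was 2.61 ± 0.58 in WT and 2.29 ± 0.57 in KO (edgeR adjusted p = 0.00721 and 0.0116). Hist1h4d fell from 17.0, 8.20, 8.0 and 6.81 CPM to 0.582, 0.138, 0.0659 and 0.199 CPM (log2 -5.07 ± 0.80 and -5.74 ± 0.88, edgeR adjusted p = 0.00142 and 0.00116). Hist4h4, the only gene of the chromosome 6 locus, fell too (log2 -2.85 and -5.32, edgeR adjusted p = 0.0372 and 0.00503). Hist1h4i was at 5.18 to 9.96 CPM at e13.5 and at 1.45 to 5.47 CPM in adults, with overlap in KO and no call (log2 -1.19, edgeR adjusted p = 0.169 in WT and -0.13, adjusted p = 0.879 in KO). Hist1h4n fell in both genotypes (log2 -4.52 and -4.99, edgeR adjusted p = 0.0253 and 0.00909). Coding sequences of equal length in class H4 were 85.3% to 100% identical.

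**Figure D5:**
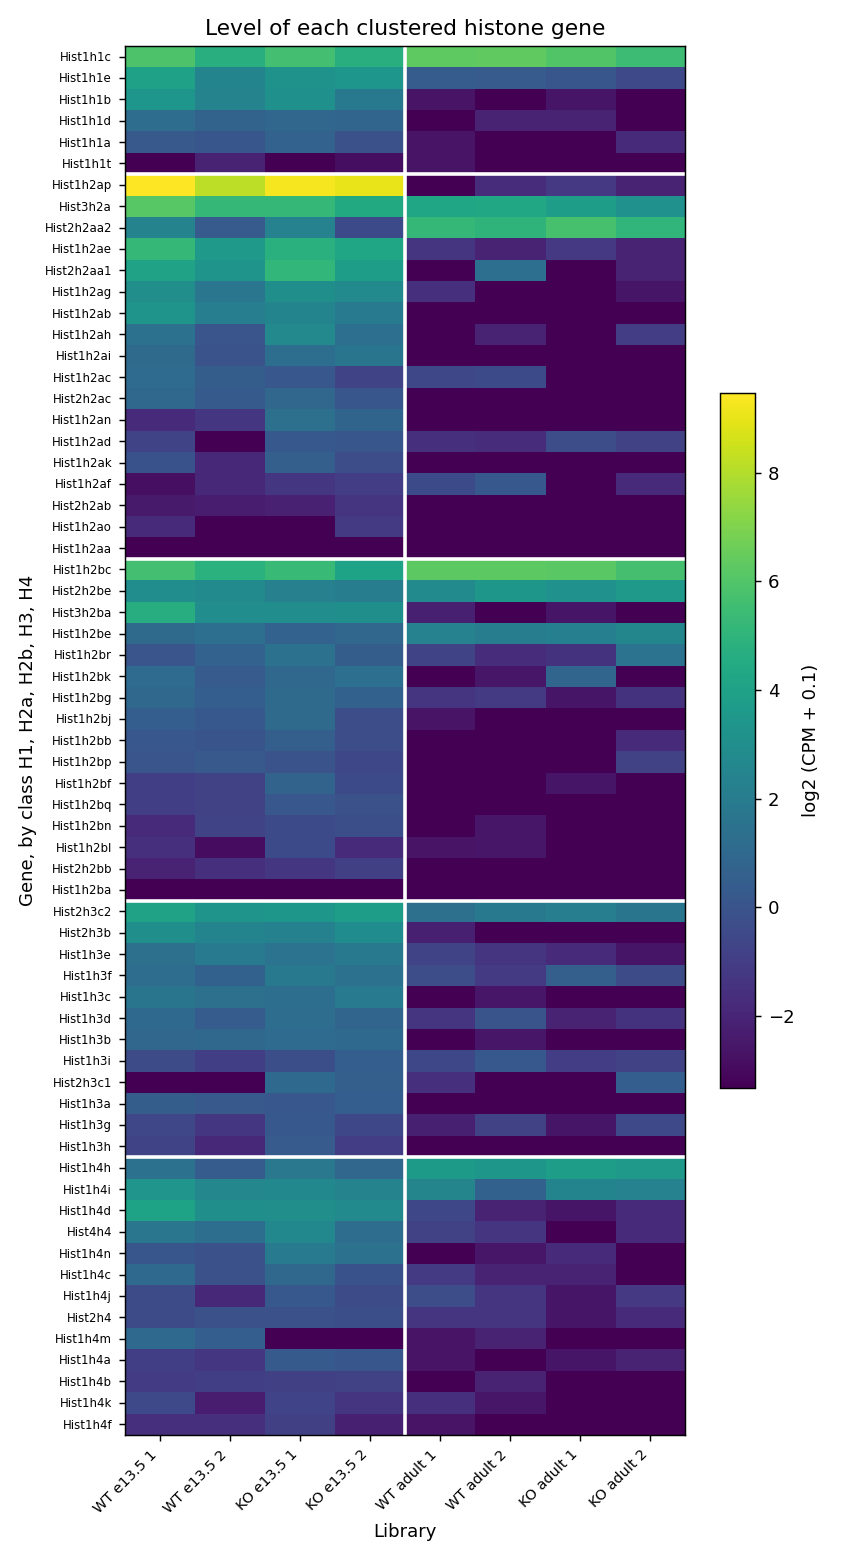
Level of each of the 65 clustered histone genes in each library as log2 (CPM + 0.1), with white lines between classes and between ages. Most genes are lower in adults, while Hist1h1c, Hist2h2aa2, Hist1h2bc and Hist1h4h are not.

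Many genes were at or near 0 in adults. Of the 65, 58 had at least 1 count in every e13.5 library, while 13 had 0 counts in all 4 adult libraries, 16 in both WT adult libraries and 25 in both KO adult libraries. Genes at 0 were not counted over the whole table, and the difference between the genotypes in these counts was not tested. Among the germline variants, Hist1h2aa and Hist1h2ba, which code for testis-specific H2A and H2B, had 0 counts in all 8 libraries. Hist1h1t, the testis linker histone H1t, had 0 and 4 counts in WT and 0 and 1 in e13.5 KO, and 1, 0, 0 and 0 in adults. These 3 genes passed no filter, and 3 counts correspond to between 0.103 and 0.207 CPM.

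Levels were also set against features that played no role in choosing the genes, as descriptions. A poly(A) signal (AATAAA or ATTAAA in the last 50 annotated bases, transcript strand) was found in 17 of the 65 genes (26.2%) and in 75.0% of other protein-coding genes. The 17 genes held 17.1% of the histone CPM at e13.5 and 49.4% in adults, but 47.8% and 49.5% when Hist1h2ap, which has no such signal, was left out of the total, so this difference between the ages rested on that gene. The 23 genes with over 200 annotated bases of 3′ untranslated region held 23.2% at e13.5 and 76.2% in adults, at a median adult level of 0.390 CPM. The 27 genes with 16 to 200 such bases held 74.8% and 23.2%, at a median of 0.0642 CPM in adults, and the 15 genes with under 16 held 2.05% and 0.59%. Without Hist1h2ap the 3 sets held 64.9%, 29.4% and 5.73% at e13.5, and in adults Hist1h2bc and Hist1h1c make up most of the share of the first. The annotated length also sets how many reads a gene could be given, which was not separated from the level here.

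A total of 12 pairs of H2A and H2B genes are transcribed away from each other with 175 to 305 bases between their starts. Levels within a pair were unequal. Hist1h2ap was at 1118 CPM per kb at e13.5 and its partner Hist1h2br, 235 bases away, at 0.726 CPM per kb. Hist1h2bc was at 29.2 CPM per kb and its partner Hist1h2ac, 250 bases away, at 0.494. In 8 of the 12 pairs the H2A gene was the higher per kb at e13.5, and 1 pair, Hist1h2aa with Hist1h2ba, was at 0. Values per kb depend on the annotated exon length. At e13.5 Hist2h2ac was above its partner Hist2h2be per kb (2.75 against 2.23) but below it in CPM (1.43 against 5.83).

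The comparison of KO with WT asked whether the loss of LncSync changed histone RNA. At e13.5 none of the 56 tested members was called by edgeR (3 had an unadjusted p below 0.05, and DESeq2 called 0), against 0.0722% of all genes. In adults none was called (4 with an unadjusted p below 0.05, DESeq2 0), against 0.0481% of all genes, and averaged over both ages none was called (4 with an unadjusted p below 0.05, DESeq2 0), against 0.12%. These percentages are shares called by edgeR at an adjusted p below 0.05. An unadjusted edgeR p below 0.05 was found for 398 of the 16623 genes tested at e13.5, and for fewer in adults. Averaged over both ages it was found for 470. The median log2 difference of the members was 0.18 at e13.5 and 0.00 in adults, beside -0.07 and 0.01 over all genes tested. In adults, 19 of the 56 members were at or under the floor of 3 counts in both genotypes. Without them, and with a gene at 0 in a group set to its bound, the adult median was 0.08 over 37 members. Summed over all 65 genes, KO differed from WT by log2 0.07 at e13.5 and -0.20 in adults. The e13.5 value turned with the library left out, from -0.39 without WT replicate 2 to 0.76 without WT replicate 1 (-0.12 without KO replicate 1), and the adult value ran from -0.43 without KO replicate 1 to -0.01 without KO replicate 2. By class the difference ran from -0.43 (H2b) to 0.15 (H2a and H3) at e13.5 and from -0.56 (H1) to 0.14 (H3) in adults. WT and KO libraries overlapped in every class sum at e13.5. In adults both KO libraries were below both WT libraries for H1 and for the total, and the other 4 class sums overlapped. Hist1h2ap itself was at 707 and 294 CPM in WT and 628 and 527 CPM in e13.5 KO. No member passed the interaction of genotype and age (3 with an unadjusted p below 0.05, DESeq2 0, and 0% of all genes called). Of the 16623 genes tested, 265 had an unadjusted p below 0.05 in the interaction.

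At e13.5 the 3 genes of lowest p between genotypes, Hist1h4m, Hist2h3c1 and Hist1h2an, share most of their sequence with another gene; they and Hist1h2ac are named here after their values were seen. Hist1h4m had 42 and 38 counts in the WT and 0 and 0 in the KO libraries at e13.5, at least 21.7-fold lower in KO, with an edgeR adjusted p of 0.657. Its twin Hist1h4n, with the same coding sequence, had 21 and 23 counts in WT and 63 and 70 in KO. The sum of both was 63 and 61 in WT and 63 and 70 in KO, or 2.90 and 2.10 CPM against 3.94 and 2.77 CPM, so the pair overlapped between genotypes. Hist2h3c1 had 0 and 0 counts in WT and 31 and 34 in e13.5 KO, at least 26.6-fold higher in KO (edgeR adjusted p = 1). All of its 31-base words also occur in the overlapping transcript Gm20634, which had 31 and 56 counts in WT and 3 and 3 in KO. The sum was 31 and 56 against 34 and 37 counts, and overlapped too. With no filter on low counts both genes passed the edgeR test at e13.5 (adjusted p = 0.0101 for Hist1h4m and 0.00117 for Hist2h3c1), so both calls depended on the filter.

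Hist1h2an had 4 and 9 counts in WT and 40 and 41 in e13.5 KO (log2 3.01 ± 0.98, edgeR adjusted p = 1), and it shares 81.5% of its 31-base words with Hist1h2ah. A miRNA gene annotated on the other strand, Gm44346, had 20 and 17 counts in WT and 0 and 8 in KO. Gm44346 covers 141 of the 393 exon bases of Hist1h2an. Such a miRNA gene is annotated over part of 17 of the 18 H2A genes. Since the counting is not stated to use strand, reads within the bases that a gene shares with its partner cannot be told apart. In adults the lowest p belonged to Hist1h2ac, of whose 31-base words 83.2% are in no other gene. It had 10 and 9 counts in WT and 0 and 0 in KO, at least 6.05-fold lower in KO (edgeR adjusted p = 0.725), and at e13.5 it had 46 and 37 counts in WT and 16 and 13 in KO. The KO libraries were thus lower than the WT libraries at both ages for Hist1h2ac, without a call at either age. An rRNA gene, Gm24991, is annotated on the same strand over 108 bases of Hist1h2ac. The same order held for Hist3h2a, at 69.5 and 36.7 CPM in WT against 36.5 and 21.8 CPM in KO at e13.5. In adults Hist3h2a stood at 18.6 and 20.3 CPM in WT against 13.8 and 8.82 CPM in KO (log2 -0.86 at e13.5 and -0.79 in adults, no call). At e13.5 its lower WT and higher KO values nearly met. Hist1h2ad had the opposite order at both ages, also without a call. It had 11 and 0 counts in WT against 17 and 25 in KO at e13.5, and 4 and 3 against 11 and 7 in adults. Genes that keep their order at both ages were not counted, among the members or over all genes.

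Genes of the histone pathway outside the clusters were taken from lists fixed by function. Of 11 tested replication-independent histone genes, 7 fell with age in each genotype and none rose (63.6% called in each, against 38.9% of all genes tested in WT and 41.4% in KO), with a median log2 change of -2.26 in WT and -2.28 in KO. H2afz, the H2A.Z gene, went from 1282, 606, 1506 and 739 CPM at e13.5 to 49.5, 38.4, 63.5 and 37.4 CPM in adults (log2 -4.43 and -4.48, edgeR adjusted p = 0.000948 and 0.000851). H2afx, which codes for the DNA damage histone H2A.X, fell by log2 -3.99 and -3.98, H2afy2, a macroH2A gene, by -3.71 and -3.64, and H3f3b, an H3.3 gene, by -2.99 and -3.25. In CPM, this set summed to 2256 to 4262 CPM at e13.5 and 478 to 674 CPM in adults, above the clustered genes in every library.

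Of 21 tested genes for histone mRNA 3′ end processing and turnover, 2 rose and 3 fell in WT, and 2 rose and 8 fell in KO. That is 23.8% called in WT, below the 38.9% of all genes, and 47.6% in KO, near the 41.4% of all genes. Slbp, which codes for the stem-loop binding protein, fell from 110, 74.2, 163 and 95.9 CPM to 12.5, 13.1, 10.4 and 10.9 CPM (log2 -2.85 ± 0.46 and -3.60 ± 0.47, edgeR adjusted p = 0.00158 and 0.000568). Sympk, the scaffold of the cleavage complex, rose (log2 2.40 and 2.64), as did Upf1, a helicase of mRNA decay (log2 3.48 and 4.04), while Ncbp2 of the cap-binding complex fell (log2 -1.47 and -1.61). Of 20 histone chaperone genes, 2 rose and 8 fell in WT, and 2 rose and 11 fell in KO (50% and 65% called, against 38.9% and 41.4% of all genes). Among them Nasp, which holds soluble H3 and H4, fell by log2 -3.08 and -3.45, Asf1b by -4.75 and -5.77, Chaf1b of the CAF-1 complex by -6.38 and -5.81, and Ssrp1 of FACT by -2.26 in both genotypes.

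Genes of DNA replication and mitosis moved with the falling histone genes. Of 38 S phase genes, 35 fell in each genotype (92.1%, against 21.1% of all genes lower in WT and 20.9% in KO), at a median log2 change of -3.72 in WT and -3.93 in KO. Ccna2, the S phase cyclin A2, went from 165, 177, 135 and 210 CPM at e13.5 to 2.74, 2.27, 2.83 and 1.06 CPM in adults (log2 -6.09 and -6.47). Tyms, Cdc6 and Rrm1, which supply nucleotides or license replication origins, fell by log2 -4.38, -4.90 and -3.37 in WT and -4.79, -5.66 and -3.38 in KO. Of 18 G2 and mitosis genes, 17 fell in WT and 18 in KO, among them Nusap1 (log2 -5.23 and -6.18), Aurkb (-5.54 and -6.22) and Plk1 (-7.09 and -7.05). None of the genes in these 5 lists was called between KO and WT at either age by edgeR (0 at an unadjusted p below 0.05 at e13.5, and 2, both of the mitosis list, in adults).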

How the data were processed

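RNA of 8 libraries (2 for each of WT and KO at e13.5 and in adults) was analysed from one deposited table of expected counts per Ensembl gene, which the authors made with RSEM on the mm10 build, per the submitters' processing notes. No source used here gives the aligner, annotation, versions or use of strand. Totals ran from 16495084 to 20395600 counts per library. Counts were rounded, and 51633 of 51826 IDs had a GENCODE vM21 symbol. Genes passing filterByExpr (16623) were fitted with edgeR 4.0.16 (R 4.3.3): TMM factors (0.77 to 1.44), 4 group means over all 8 libraries, 4 residual degrees of freedom, the quasi-likelihood test and Benjamini-Hochberg adjustment over all genes at 0.05. The script was tested on simulated data. Class sums used all 65 genes before the filter and had no test. A group at 0 was set to 3 counts over the group; 95% intervals are exact binomial (Clopper-Pearson) and, like these floors, cover counting error only. Alternatives were DESeq2 1.42.0, other scalings and filters, a replicate block, leaving out each library and, chosen after seeing the data, merging copies with identical coding sequence. Named genes were those called between genotypes (none), the 5 of highest mean CPM in each class, the 6 largest called rises and falls per age comparison, 3 germline genes and up to 4 called genes per list; genes printed for sequence or as copies were picked with values in view. The members and lists were chosen with earlier results of these data known.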

Additional observations from a re-analysis of the deposited data

How the results depend on the processing

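The age comparison gave 33 called histone genes in WT and 38 in KO. With at least 5 CPM required in 2 libraries, where 18 histone genes were left to test, it gave 14 and 14. Leaving out 1 library gave 12 to 31 genes in WT and 23 to 36 in KO. DESeq2 gave 31 and 37, and copies merged gave 30 and 35. No histone gene was called between genotypes in any other setting run, but with no filter on low counts 2 were called at e13.5, 1 in adults, 2 averaged over both ages and 1 in the interaction; the adult call was Hist2h2aa1 (edgeR adjusted p = 0.0117). The summed log2 age difference of -1.71 in WT became -0.34 without Hist1h2ap and ran from -2.17 to -1.03 leaving out 1 library. In KO the value of -1.99 became -0.38 without Hist1h2ap and -2.52 with library totals not scaled by TMM, and ran from -2.21 to -1.79. Between genotypes the sum ran from -0.39 to 0.76 at e13.5 (0.07 with all libraries) and from -0.43 to -0.01 in adults. The H2b sum in KO turned from 0.55 to -0.53 without Hist1h2bc. Between genotypes in adults, Hist2h2aa1 turned from -4.04 to 3.54 without WT replicate 2 (range -7.57 to 3.54 leaving out 1 library), and Hist1h2bk from 4.48 to -2.61 without KO replicate 1 (range -2.61 to 7.11), where each left-out library held nearly all counts of the gene in its group. A fit with the replicate number as a block gave 34 and 39 age calls over all libraries, and 37 and 42 with the block at e13.5 alone, while the share of all genes called rose to 45.8% and 48.6%, and to 58.1% and 60.1%, from 38.9% and 41.4%; neither called a histone gene between genotypes. Same-numbered libraries deviated together between genotypes, at a correlation of 0.55 at e13.5 and 0.31 in adults, but at -0.03 to 0.16 across ages. The labels do not say what a number marks and not every pair was over 0.1, so the numbers were not taken to pair the samples over the whole design. With 2 libraries a group and 0 to 5 adult counts for many histone genes, adult differences between genotypes were often not detectable at this depth.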
